A study of Mus musculus with 21 samples.

Results

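Lymph node plasma cells were taken as the cells that the authors' cell table names PC, and there were 242 of them among 6619 cells. They came from 6 mice: the pair of day 10 gave 19 and 127 cells, that of day 16 gave 12 and 29, and that of day 22 gave 43 and 12. In the same table all 242 carried cluster number 6, and that cluster held no other cell. The table names the other cells prePC (47), LZtoDZ (232), DZ (2382), LZ (3194) and preMem (522), which are taken here as plasma cell precursors, light zone cells on their way to the dark zone, dark zone and light zone germinal centre cells, and memory precursors.

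Every mouse was immunised under the skin at the tail base with 100 µg of NP-KLH, a hapten on a carrier protein, in Sigma Adjuvant System. Each was then gavaged once with 5 mg of tamoxifen, at the earliest 6 days later, to switch on the label eYFP through Cre-ERT2. The promoter that drives Cre-ERT2, the strain, the sex and the age of the mice are not given in the sources used here, and no group lacked antigen or tamoxifen. Response days 10, 16 and 22 were sampled from the draining lymph nodes, and living IgD-negative eYFP-positive cells were sorted into a plasma cell fraction and a non-plasma cell fraction. The cells of each mouse carried their own hashtag antibody, and the cells of all mice were pooled within a fraction for 5′ single-cell RNA sequencing, with the fractions captured in separate wells. The counts are of unique molecular identifiers (UMIs), which mark single captured RNA molecules. A plasma cell held between 2436 and 52618 UMIs with a median of 18722.5, and the plasma cells of a mouse summed to between 163416 and 2604276 UMIs.

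Plasma cells are the antibody-secreting end stage of the B cell lineage. The transcription factor Blimp-1 (Prdm1) shuts down much of the B cell programme, and Irf4 and Xbp1 drive the growth of the endoplasmic reticulum (ER) in which antibody chains enter, fold, are glycosylated and leave for the Golgi. When unfolded protein builds up in the ER, Xbp1 mRNA is spliced to its active form, and Xbp1 and Atf6 then act at promoter elements such as the ER stress response element. Plasma cells that still divide are often called plasmablasts, and both kinds are found in lymph nodes during a response.

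Of the 242 plasma cells, 234 came from the plasma cell fraction, which held 436 cells, and 8 came from the other fraction, which held 6183. State and fraction, and with it the wells, therefore largely coincided, and in the sums by state their parts cannot be told apart. The 156 germinal centre cells (DZ, LZ and LZtoDZ) of the plasma cell fraction had 1104 CPM of Jchain (UMIs of a gene per 1000000 UMIs) and 3.11 of Fkbp11, and those of the other fraction had 1253 and 0.175. Within the plasma cell fraction the 234 plasma cells had 21212 CPM of Jchain and 516.4 of Fkbp11. The part of the fraction in the levels was not tested. The 8 plasma cells of the non-plasma cell fraction had 4672 CPM of Jchain, 734.7 of Xbp1 and 25.9 of Ly6c2, below the 21212, 2057 and 1233 CPM of the other 234. Between fractions 6 barcodes were shared, 1 of them by a plasma cell. All CPM values are scaled to the UMIs outside 253 immunoglobulin genes, since those genes took up a quite different share of UMIs in each state.

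The 5 markers matched the name of the cells. All of them had their highest mean CPM in plasma cells. Every one of the 242 cells held a UMI of at least 1 of them, but Xbp1 alone gave this. It had a UMI in 100% of plasma cells and also in 59.2% of DZ cells, so holding at least 1 marker does not set plasma cells apart. A UMI of 1 marker was found in 26 cells, of 2 in 53, of 3 in 76, of 4 in 63 and of all 5 in 24. Xbp1 (chr11:5520659-5525893, GRCm38, protein-coding like the other markers) ranged over the 6 mice from 1573 to 2394 CPM with a median of 1924, and its next highest state, prePC, had 245.4 ± 78.5 (SD, n = 5). Cd28 (chr1:60716800-60773359), better known as a T cell co-receptor that also supports long-lived plasma cells, ranged from 124.2 to 209.3 with a median of 148.2, against 7.22 ± 12.8 in prePC. Tnfrsf17 (chr16:11313812-11320074), the receptor BCMA for the survival factors APRIL and BAFF, ranged from 52.5 to 226.0 with a median of 108.7, against 4.94 ± 6.97. Sdc1 (chr12:8771323-8793715), which encodes the surface proteoglycan CD138, ranged from 41.9 to 85.2 with a median of 66.0, against 4.39 ± 5.36. For these 4 genes the lowest mouse lay above every sum of the 5 other states. Prdm1 (chr10:44437177-44528501) did not separate fully, with 34.6 to 117.2 CPM and a median of 60.6 against up to 61.0 in a prePC sum. The plasma cell module score in the authors' table ran from 0.311 to 1.01 in plasma cells and from 0.250 to 0.472 in prePC, and no other cell passed 0.250. The lowest prePC value was 0.2503 and the highest value of DZ 0.2495. The score may thus have been used to name the states, which the sources do not say. It is therefore no separate support for the name.

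Markers of other cell types were low, though not all were near 0. Of 10 T cell markers 4 had any UMI in the plasma cells, 39 UMIs in all, and Cd3e, Cd3d, Cd4 and Cd8a were among those at 0. Natural killer markers gave 18 UMIs from 2 of 6 genes, with Ncr1 and Nkg7 at 0. Myeloid markers gave 145 UMIs from 6 of 9, 86 of them from Cd68, with Csf1r, Adgre1 and Itgax at 0, and summed to between 7.68 and 125.6 CPM by mouse. Of 6 myeloid genes with at least 1 CPM in some state, 2 were highest in plasma cells, against 16.9% of all genes. On average the myeloid list took up 0.0052% of UMIs in plasma cells, with 0.0012% (LZtoDZ) to 0.0109% (prePC) in the other states. Stromal and endothelial markers gave 40 UMIs, nearly all from Pecam1, and erythroid markers gave 1. These lists reached at most 33.5 (T cell), 6.40 (natural killer) and 12.0 (stromal) summed CPM in any mouse. Naive B cell markers gave 563 UMIs over all 8 genes, between 91.5 and 223.6 summed CPM by mouse against 1690 to 2132 in memory precursors.

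The states were named from expression, so the levels of plasma cells against other states are a description with no test. Of 11348 genes with at least 1 CPM in some state, 1923 (16.9%) had their highest mean in plasma cells. For 300 genes (2.64%) every plasma cell sum lay above every sum of the other states, and for 176 (1.55%) every one lay below. Of the genes that separated in either direction 63.0% were thus higher in plasma cells. With immunoglobulin genes kept in the library size every ratio of plasma cells to another state moved by between -0.37 and -0.33 on the log2 scale, the counts became 204 above and 363 below, and the share that was higher fell to 36.0%. The count below was 288 without day 10 mouse 1 and 267 without day 16 mouse 2. Over all genes the median log2 ratio of plasma cells to germinal centre cells was -0.34.

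The largest ratios to the next highest state belonged to genes of secretion, to surface molecules and to several genes of neither kind. Among the 20 genes with the largest ratios, all above every other sum, the gene a (agouti, an antagonist of melanocortin receptors; chr2:154791402-155051012) came first with 50.2 to 135.0 CPM, a median of 87.3 and a ratio of 62.3. Fkbp11, a prolyl isomerase of the ER, ranged from 244.6 to 658.1 with a median of 531.8 and a ratio of 45.3. Selm, a selenoprotein of the ER, had a mean of 109.1 ± 39.3 (SD, n = 6) and a ratio of 44.6. No sum of another state passed 26.0 CPM for Fkbp11 or 8.91 for Selm. Prg2, known as the major basic protein of eosinophil granules, had a mean of 92.5 ± 86.8 and a ratio of 28.2, and day 16 mouse 1 alone lay above 79.3. Pon3, a lactonase, had 156.0 ± 49.7 and a ratio of 15.1. Sec24d, a cargo adaptor of the vesicles that leave the ER, had 71.4 ± 27.1 and a ratio of 19.9. Creb3l2, an ER-bound transcription factor of the secretory pathway, had 97.1 ± 20.4 and a ratio of 9.77. Fam46c, a poly(A) polymerase also called Tent5c, was the steadiest of the 20 between mice, with 332.5 to 395.6 CPM and a ratio of 10.9. Ifitm3, an interferon-induced restriction factor, was the least separated by ratio (9.13) and ranged from 33.5 to 298.7, just above the highest other sum of 30.5.

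The order of these ratios rests in part on single mice, since the next state often held few UMIs of the gene. On the log2 scale the ratio of a was 5.96, and 6.90 without day 22 mouse 2, and that of Selm went from 5.48 to 6.89. Without day 22 mouse 1, Cd28 (6.52 in place of 4.44) and Prg2 (5.99 in place of 4.82) ranked above a (5.74), Tnfrsf17 went from 4.58 to 5.73 and Fam46c from 3.45 to 4.44. Without day 16 mouse 2, Sdc1 went from 3.84 to 4.57, Creld2 from 3.59 to 4.28 and Creb3l2 from 3.29 to 3.94. Ly6c2 went from 4.68 to 5.54 without day 10 mouse 2, and Prg2 to 4.13 without day 16 mouse 1. With prePC left out Cd28 led, at 10.11. Phase mattered too, since the states differ in their share of cycling cells. In G1 cells only of every state Creb3l2 went from 3.29 to 1.59, Sdc1 from 3.84 to 2.76 and Cd28 from 4.44 to 3.08. Other ratios rose there, such as a to 7.15 and Selm to 8.43.

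**Figure D1:**
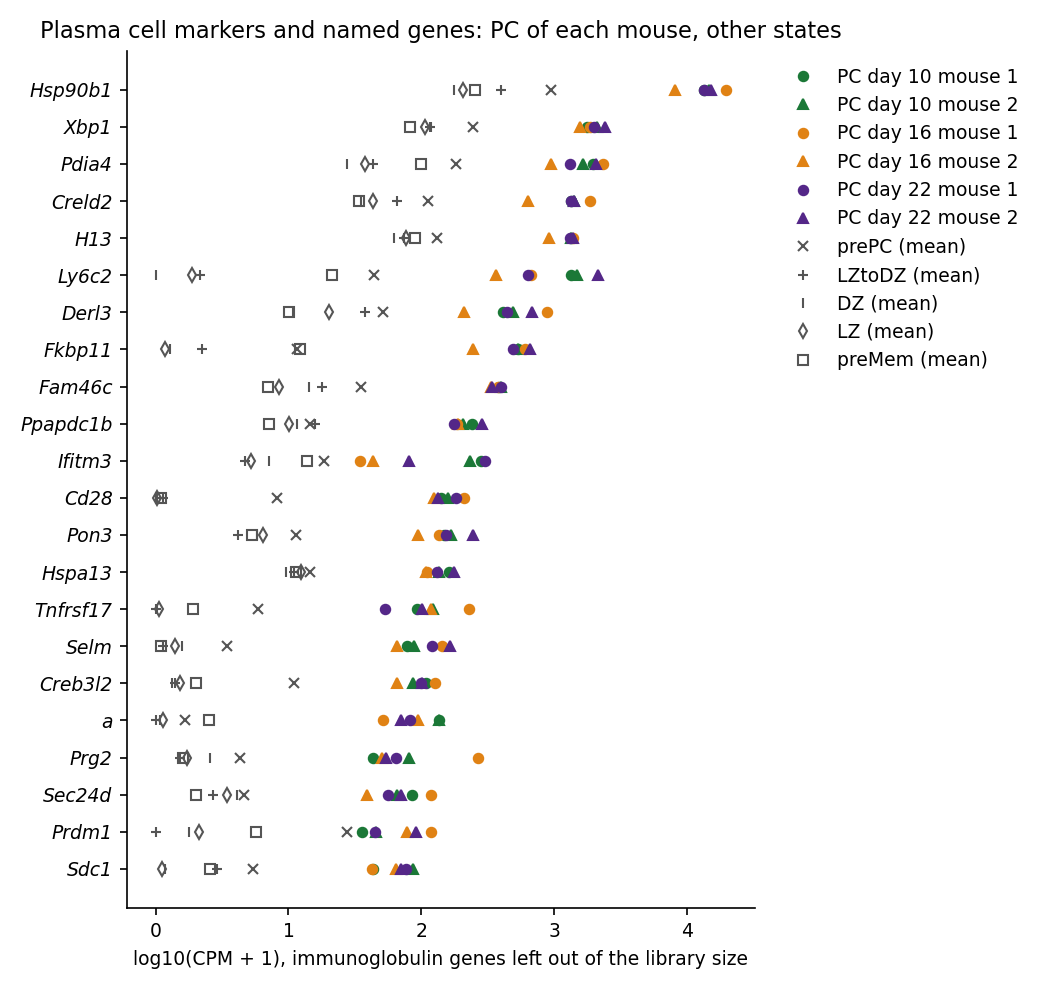
Level of 22 genes (the 20 with the largest ratio to the next state, and the markers Xbp1 and Prdm1) on a log10(CPM + 1) axis, with a coloured symbol for the plasma cell sum of each of the 6 mice and grey symbols for the means of the 5 other states. The coloured symbols lie to the right of all grey ones in each row, and prePC (crosses) is the nearest state in most rows.

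By abundance outside immunoglobulin genes Jchain led, the chain that joins IgM and IgA units (chr5:88519809-88527891). It ranged from 14246 to 26286 CPM with a median of 20281, against 2497 ± 1033 in prePC. Slpi, a secreted protease inhibitor, followed with a mean of 16720 ± 4630. Hsp90b1, the ER chaperone GRP94, had 8140 to 19671 CPM and a median of 14012, and Mzb1, a co-chaperone of GRP94 in B cells, had 6882 to 14180 and a median of 12174. Of the 15 most abundant genes these 4 alone stood more than 8 times above the next state. Most of the other 11 encode ribosomal proteins, and Cd74, the invariant chain of MHC class II, was still among them with 9085 ± 3494 CPM, below its 32662 in memory precursors.

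The secretory pathway was high along its whole length. Together 126 genes of 6 lists (antibody assembly, ER entry, ER folding, the unfolded protein response with ER degradation, N-glycosylation and ER to Golgi traffic) took up 11.6% ± 2.01 (SD, n = 6) of the UMIs outside immunoglobulin genes in plasma cells. The same genes took up 2.26% ± 0.42 in prePC (n = 5) and between 1.27% and 1.53% on average in the other states. By mouse the share ran from 8.11% to 13.8% in plasma cells, and its highest value elsewhere was 2.90%.

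Step by step, antibody assembly had 14 of 15 genes highest in plasma cells and 12 above every other sum, against 16.9% and 2.64% of all genes. Beside Jchain, Hsp90b1 and Mzb1, its highest member was Hspa5 (BiP, the chaperone that holds free heavy chains), with 1464 to 3558 CPM and a median of 2523. Some genes, such as Hsp90b1, Hspa5 and Pdia4, stand in both the assembly and the folding list. All 22 ER entry genes were highest in plasma cells and 18 lay above every other sum, among them Sec61b of the translocation channel with 3022 ± 423 CPM and Sec11c of the signal peptidase with 2706 ± 372. H13, the peptidase that clears signal peptides from the membrane, had 1273 ± 179. ER folding had 24 of 25 genes highest and 17 above, such as Manf at 3115 ± 641 and Pdia4, a disulfide isomerase, at 1700 ± 508.

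Of the unfolded protein response and ER degradation 20 of 23 genes were highest in plasma cells and 14 above every other sum. Derl3, part of the channel that takes misfolded protein out of the ER, ranged from 208.3 to 878.9 CPM with a median of 465.2. N-glycosylation had 19 of 23 highest and 12 above, led by Krtcap2 of the oligosaccharyltransferase with 1654 ± 246. ER to Golgi traffic had 29 of 30 highest and 20 above, led by Tmed10 with 846.6 ± 102.5, and Lman1, a cargo receptor for glycoproteins, had 796.9 ± 170.4. The lists were medians of 1.84 to 3.19 log2 units above germinal centre cells, from ER to Golgi traffic to antibody assembly.

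**Figure D2:**
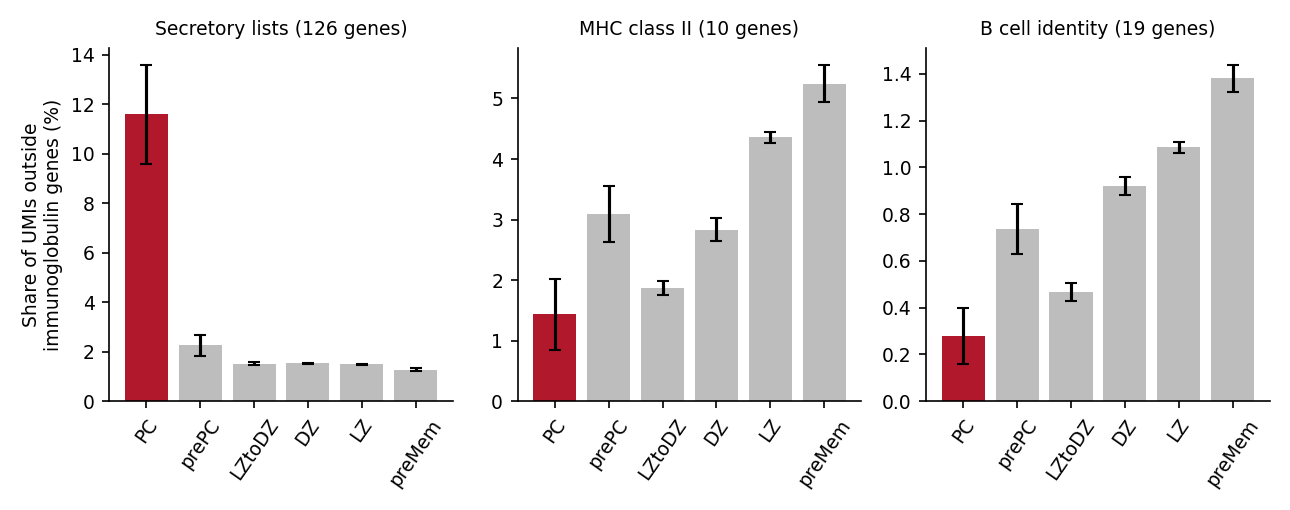
Share of UMIs outside immunoglobulin genes (%, linear axes from 0, 1 scale per panel) that fell to the 126 secretory genes, 10 MHC class II genes and 19 B cell identity genes in the 6 states; bars are means over mice and error bars the SD (n = 6, prePC n = 5). Plasma cells (red) stand at 11.6% in the first panel, where no other state passes 2.26%, and have the lowest bar in the other 2 panels.

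Promoters of the secretory genes were searched because these genes were high together and because elements bound by Atf6 and Xbp1 are known from several of them. RefSeq promoters of GRCm38.p6, from 250 bases before to 50 after a start site, matched 104 of the 126 genes (122 windows). Both strands were searched for the ER stress response element ERSE (CCAAT and CCACG with 9 bases between), ERSE-II (ATTGG and CCACG with 1 base between), the element UPRE (TGACGTGG) and the Xbp1 core (GCCACGT). The core can overlap the end of an ERSE or ERSE-II and a UPRE read on the other strand, so the 4 counts are not separate. An ERSE was found in 10 of 122 windows (8.20%), against 0.119% of all 32851 windows of the table. ERSE-II stood in 2.46% against 0.0365%, UPRE in 5.74% against 0.676% and the core in 20.5% against 2.58%. At least 1 of them was in 32.0% of windows, against 3.18% of all. A match is a description of these letters and says nothing of binding in these cells. The 10 genes with an ERSE were Calr, Canx, Creld2, Derl3, Dnajc3, Ero1lb, Hsp90b1, Hspa5, Pdia6 and Syvn1.

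The 6 sequences shown are the 250 bases before the start site of the genes of the antibody assembly and ER folding lists that hold an ERSE there and whose plasma cell sums all lay above every other sum. They are written 5′ to 3′ on the strand of the gene, and capitals mark the ERSE, which reads backwards (CGTGG first) where it lies on the other strand. Their coordinates, on the plus strand except for Hsp90b1 and Calr, are chr10:86705445-86705694 for Hsp90b1, chr2:34771840-34772089 for Hspa5, chr12:17266339-17266588 for Pdia6, chr15:88819396-88819645 for Creld2, chr8:84846932-84847181 for Calr and chr14:118937682-118937931 for Dnajc3. Mean levels in plasma cells were 14064 CPM for Hsp90b1, 2642 for Hspa5, 1664 for Pdia6 (a disulfide isomerase), 1331 for Creld2, 1301 for Calr (calreticulin, a chaperone for glycoproteins) and 889.7 for Dnajc3 (an Hsp40 partner of BiP).
Hsp90b1 promoter: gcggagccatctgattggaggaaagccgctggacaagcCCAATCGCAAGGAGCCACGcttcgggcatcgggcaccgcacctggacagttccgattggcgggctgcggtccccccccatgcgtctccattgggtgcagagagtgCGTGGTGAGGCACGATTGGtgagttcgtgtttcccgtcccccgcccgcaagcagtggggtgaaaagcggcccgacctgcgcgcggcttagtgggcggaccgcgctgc
Hspa5 promoter: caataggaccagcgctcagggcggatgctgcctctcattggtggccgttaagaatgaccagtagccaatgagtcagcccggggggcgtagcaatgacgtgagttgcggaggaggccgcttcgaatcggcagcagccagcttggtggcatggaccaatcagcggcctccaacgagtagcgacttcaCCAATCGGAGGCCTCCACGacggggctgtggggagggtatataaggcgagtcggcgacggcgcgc
Pdia6 promoter: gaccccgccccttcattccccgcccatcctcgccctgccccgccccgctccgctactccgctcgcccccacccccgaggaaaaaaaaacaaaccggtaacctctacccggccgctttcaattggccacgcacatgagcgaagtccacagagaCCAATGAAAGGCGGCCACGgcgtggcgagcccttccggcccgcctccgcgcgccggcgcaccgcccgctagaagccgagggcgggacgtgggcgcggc
Creld2 promoter: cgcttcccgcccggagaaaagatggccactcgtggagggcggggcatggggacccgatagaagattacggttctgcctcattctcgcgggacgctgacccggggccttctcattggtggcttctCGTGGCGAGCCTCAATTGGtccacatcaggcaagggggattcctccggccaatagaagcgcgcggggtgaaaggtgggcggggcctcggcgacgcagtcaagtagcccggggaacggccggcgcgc
Calr promoter: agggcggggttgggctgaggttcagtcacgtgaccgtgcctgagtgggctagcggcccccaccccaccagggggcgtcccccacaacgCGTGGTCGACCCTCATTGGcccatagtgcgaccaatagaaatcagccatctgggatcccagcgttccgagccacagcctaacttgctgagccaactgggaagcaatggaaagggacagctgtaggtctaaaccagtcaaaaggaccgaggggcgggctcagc
Dnajc3 promoter: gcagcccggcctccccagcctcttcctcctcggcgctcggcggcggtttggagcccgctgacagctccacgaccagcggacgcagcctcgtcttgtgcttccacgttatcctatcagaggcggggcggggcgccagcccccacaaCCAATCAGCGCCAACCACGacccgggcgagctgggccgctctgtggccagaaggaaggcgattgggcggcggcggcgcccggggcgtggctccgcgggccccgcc
Hsp90b1, the most abundant of the 6, held 2 such elements, 1 on each strand, and the others held 1.

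Plasma cell regulators beside the markers were mixed. Of 13 transcription genes, 8 were highest in plasma cells and 6 lay above every other sum. Irf4 ranged from 116.8 to 219.0 CPM with a median of 179.9, against 20.8 ± 16.6 in prePC. Pou2af1, a co-activator of immunoglobulin transcription in all B cells, was at 425.0 ± 62.8 and below the 659 of DZ. Against 16.9% and 2.64% of all genes, 9 of 22 survival and cytokine receptor genes were highest and 4 above, while Bcl2a1b and Tnfrsf13c (the BAFF receptor) lay below every other sum. The list as a whole took up 0.189% of UMIs in plasma cells, less than in LZ (0.205%) and preMem (0.222%). Its highest member was Slamf7, a surface receptor of plasma cells, at 225.5 to 355.6 CPM. Of 24 migration and adhesion genes 10 were highest and 2 above. These 2 were Cd47, the "do not eat me" signal to phagocytes, at 470.0 ± 80.2, and Selplg, the ligand of P-selectin, at 194.9 ± 34.6. Ly6c2, a surface antigen, varied widely between mice, with 364.9 to 2123 CPM and a median of 997.6, and still lay above the highest other sum of 126.0.

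B cell genes were low but not all absent. None of 19 B cell identity genes, 14 germinal centre genes, 10 MHC class II genes or 17 B cell receptor signalling genes was highest in plasma cells, and 9, 1, 2 and 4 of them lay below every other sum, against 1.55% of all genes. Ms4a1 (CD20) ranged from 90.0 to 226.0 CPM, below a lowest other sum of 745.7. Pax5, the factor that holds B cell identity, had 0 UMIs in 3 of 6 mice and at most 11.5 CPM. MHC class II genes took up 1.43% ± 0.58 of UMIs against 1.87% to 5.25% on average elsewhere, and the plasma cells of day 16 mouse 1, the highest at 2.54%, lay above the range of LZtoDZ (1.78% to 2.06%) and below that of every other state. Cells were also compared after thinning each to 7507 UMIs outside immunoglobulin genes, which kept 217 plasma cells (100 in G1 and 117 in S or G2M) and left out 25. Pax5 then had a UMI in 0 of 100 G1 cells (95% Clopper-Pearson interval up to 3.62%) and 0 of 117 cycling cells (up to 3.10%), against 51.3% of 1582 DZ cells. Ms4a1 was still found in 54.0% of G1 plasma cells and H2-Aa in 93.0%, against 99.9% and 100% of DZ cells. All cells in the table are of the B lineage, so the share of such UMIs that free RNA gives was not measured. Intervals cover counting error only.

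Immunoglobulin transcripts took up 23.0% ± 4.11 (SD, n = 6) of plasma cell UMIs, with 15.5%, 22.1%, 23.3%, 24.1%, 26.4% and 26.9% in the 6 mice. Other states had means of 0.81% to 2.96%, the last in prePC. Among single plasma cells the share ran from 1.36% to 57.9%. By the heavy chain constant gene with the most UMIs in a cell, 158 plasma cells were Ighg1, 37 Ighm, 21 Ighg2b, 20 Ighg2c, 4 Ighe and 2 Ighg3, and lambda light chains led in 42. Ighg1 led in every mouse, in 44.2% to 75.6% of its cells, and was 65.3% over all cells. In the median cell the leading constant gene held 94.9% or more of heavy chain UMIs for Ighg1, Ighm, Ighg2b and Ighg2c.

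Close to 1 in 2 plasma cells carried a cycling call, and mice differed widely. The authors' table calls 122 cells G1, 65 S and 55 G2M, and the last 2 calls together are named cycling here. Cycling cells made up 36.8% and 45.7% on day 10, 8.33% and 58.6% on day 16, and 62.8% and 83.3% on day 22, a mean of 49.3% ± 25.6 (SD, n = 6). Exact 95% binomial intervals were wide where cells were few, from 0.211% to 38.5% in day 16 mouse 1 and from 51.6% to 97.9% in day 22 mouse 2, each with 12 cells. The day 10 and the day 22 mice did not overlap. The day 16 mice lay on either side of the day 10 mice, and both lay below the day 22 mice. The difference between days was not tested. Other states had means of 8.79% (preMem), 41.2% (prePC), 46.2% (LZ), 63.1% (DZ) and 88.9% (LZtoDZ).

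The method of the phase call is not given in the sources used here. In thinned cells the 54 genes of the G2 and M phase list summed to a median of 11 UMIs in G1 plasma cells, 50 in S and 99.5 in G2M, and the 45 S phase genes to 7, 43 and 27. DZ cells of the same depth were higher in each phase, with 28, 58 and 161 UMIs for the first list and 16, 60 and 24 for the second, except that the S phase list in G2M cells was slightly lower. Mki67, a protein of dividing cells, had a UMI in 38.0% of the G1 plasma cells and 88.9% of the cycling ones.

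**Figure D3:**
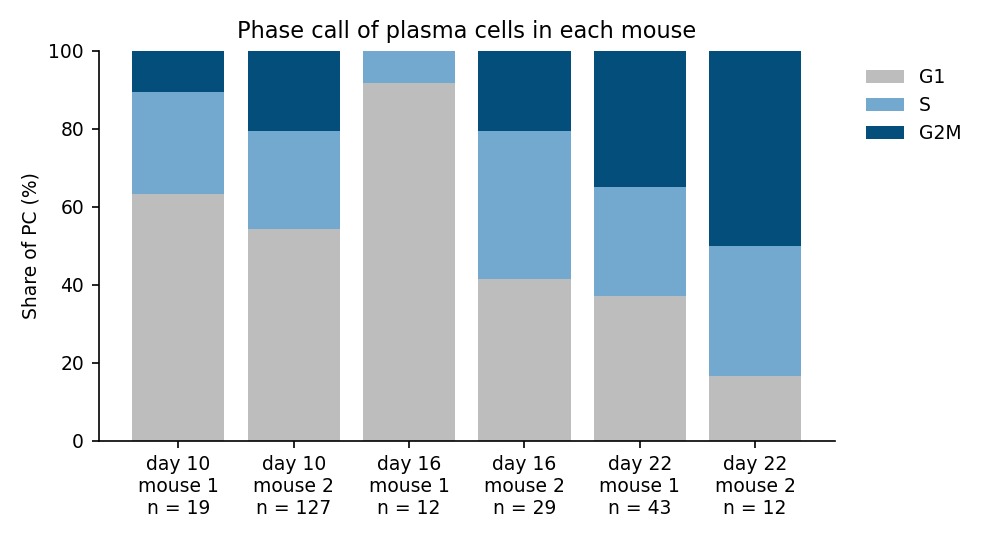
Share of plasma cells (%, stacked from 0 to 100) called G1 (grey), S (light blue) or G2M (dark blue) in each of the 6 mice, with the number of plasma cells under each bar. The cycling part runs from 8.33% in day 16 mouse 1 to 83.3% in day 22 mouse 2, both of which had 12 cells.

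Cycling and G1 plasma cells of the same mouse were then compared, which asks how the secretory state of a plasma cell goes with division. The 4 mice with at least 5 cells of each kind entered: both day 10 mice, day 16 mouse 2 and day 22 mouse 1. Cycling cells held 1.90 times as many UMIs outside immunoglobulin genes, 20294 ± 2601 per cell (SD, n = 4) against 10706 ± 1142. They also held more genes, with medians per mouse that averaged 3410 against 2199, and fewer immunoglobulin UMIs, 3896 ± 846 against 4602 ± 484. The immunoglobulin share was 18.4%, 16.1%, 10.5% and 20.1% in cycling cells of the 4 mice and 27.1%, 29.6%, 28.5% and 35.5% in their G1 cells. The ranges did not overlap, and the share was lower by 13.9 percentage points ± 3.90 (SD of the difference) in cycling cells, in 4 of 4 mice. An exact 2-sided sign-change permutation test gave p = 0.125 (adjusted 0.125 over 5 measures), the smallest p that 4 mice allow, so this design could not pass 0.05.

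Single cells spread widely within each phase. The immunoglobulin share had a median of 28.1% in G1 cells (4.95% to 57.9%), 14.5% in S (1.36% to 37.6%) and 21.7% in G2M (5.38% to 51.6%). A share under 10% was found in 7 of 122 G1 cells and in 30 of 120 cycling cells. In day 22 mouse 2, which had 2 G1 cells and was not in the comparison, the 10 cycling cells had 26.0%, above all 4 mice compared.

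**Figure D4:**
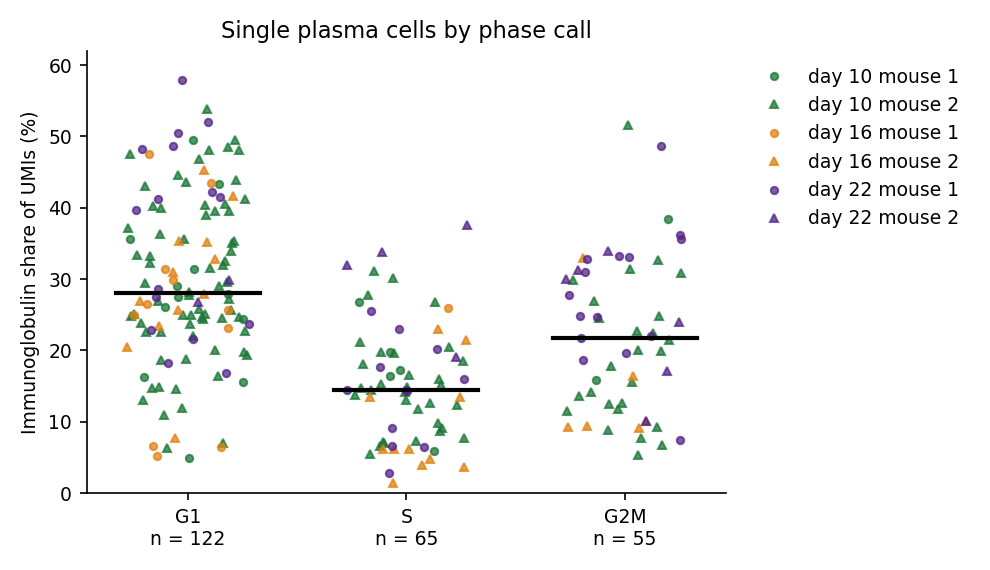
Immunoglobulin share of UMIs (%, y axis from 0 to 60) of each of the 242 plasma cells by phase call, with 1 symbol per cell coloured by day and shaped by mouse, spread sideways at random; black lines are medians. The medians are 28.1% in G1, 14.5% in S and 21.7% in G2M, and the 3 ranges overlap.

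Across genes outside the immunoglobulin loci, 906 of 2822 (32.1%) differed between cycling and G1 plasma cells by edgeR's quasi-likelihood test with the mouse as a block (Benjamini-Hochberg adjusted p under 0.05). Of these 468 were higher in cycling cells (16.6% of those tested) and 438 lower (15.5%). DESeq2 called 577 of the same 2822 genes. Fewer genes could be tested without day 10 mouse 2, which gave 127 of the 242 cells (590 of 1826 called), and with each cell thinned to the same depth (423 of 1343 called). Phase calls are commonly made from cell cycle genes and the method used here is not given, so the 28 of 29 tested S phase genes and 27 of 29 tested G2 and M phase genes that were higher are a description of the call. The levels that follow are CPM after edgeR's TMM scaling over the tested genes.

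Genes of secretion were lower in cycling cells at almost every step, as a share of the cell's other RNA. Antibody assembly had 14 of 15 tested genes lower, ER folding 20 of 24, the unfolded protein response and ER degradation 13 of 17, N-glycosylation 12 of 17, ER entry 14 of 22 and ER to Golgi traffic 15 of 27, and none of their tested members was higher. Against this, 15.5% of all tested genes were lower. Jchain had 24666, 41578, 38334 and 47243 CPM in the G1 cells of the 4 mice and 14423, 13886, 8292 and 12413 in their cycling cells, with no overlap. Its log2 difference was -1.63 ± 0.15 (SE; edgeR adjusted p = 7.4e-07). Hsp90b1 had 19278, 22467, 14778 and 22831 CPM in G1 and 9376, 11849, 6694 and 12285 in cycling cells, a log2 difference of -0.999 ± 0.062 (adjusted p = 9.5e-09). Herpud1, which helps to degrade ER proteins and is induced when they misfold, fell further, from a mean of 991.4 to 265.9 CPM (log2 difference -1.93 ± 0.15). Ssr4, a subunit of the translocon, fell from 3597 to 1474 (-1.33 ± 0.16), and Derl3 from 726.6 to 267.1 (-1.43 ± 0.14). The members that did not pass included Canx, Hyou1, Ero1l and Sil1 among the folding genes and Atf6, Atf6b, Derl2 and Ube2j1 among the response genes.

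In UMIs per cell, with no scaling, the secretory genes differed far less. The 126 genes summed to 1581 ± 173 UMIs in a G1 cell and 1720 ± 228 in a cycling cell (SD, n = 4), a ratio of 1.09, while all genes outside immunoglobulin summed to 1.90 times as many. Antibody assembly had 0.881 times as many UMIs per cycling cell and was lower in 4 of 4 mice, ER entry had 1.35 times as many and ER to Golgi traffic 1.49 times, both higher in 4 of 4. Jchain was lower on this scale too, with 346.9 ± 67.0 UMIs per G1 cell and 237.3 ± 36.7 per cycling cell (lower in 4 of 4 mice), whereas Hsp90b1 had 184.2 ± 38.6 and 195.8 ± 44.8. The log2 ratio of all UMIs outside immunoglobulin genes per cell was 0.92, so a gene with the same number of UMIs per cell in both phases lies lower by about that much before TMM scaling. TMM scaling adds to this offset, with factors of 1.05 to 1.09 in cycling sums and 0.908 to 0.979 in G1 sums. Hsp90b1, with a log2 ratio of 0.088 in UMIs per cell, was at -0.999 by edgeR. These values per cell were not tested.

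Plasma cell markers and regulators took part unevenly. Of the 5 markers Xbp1 (log2 difference -0.81 ± 0.11, edgeR adjusted p = 3.0e-05), Cd28 (-0.94 ± 0.23, adjusted p = 0.0053) and Sdc1 (-0.99 ± 0.28, adjusted p = 0.011) were lower in cycling cells. Sdc1 did not pass without day 10 mouse 2 or without day 16 mouse 2. In UMIs per cell, which were not tested, the direction turned: Xbp1 had 25.8 in G1 and 31.5 in cycling cells, and the 5 markers together had 31.2 and 37.4, both higher in 3 of 4 mice. Prdm1 (-0.91 ± 0.35, edgeR adjusted p = 0.056) and Tnfrsf17 (-0.69 ± 0.28, adjusted p = 0.074) did not pass, and neither did Irf4 (-0.54 ± 0.27, adjusted p = 0.13). Tnfrsf17 passed without day 10 mouse 2 (log2 difference -1.25) and Prdm1 without day 22 mouse 1 (-1.26). Fam46c fell from 652.4 to 288.7 CPM (-1.13 ± 0.15). Of 260 tested genes that lay above every other state in plasma cells (immunoglobulin, mitochondrial and predicted genes left out), 163 were lower in cycling cells and 1 was higher, against 15.5% and 16.6% of all tested genes. These genes were picked from the same cells, above DZ and LZtoDZ sums with more cycling cells (means of 63.1% and 88.9%, against 49.3%). Genes higher in cycling cells could thus hardly enter the set, so the split was in part fixed by the choice and is a description. The median log2 difference of the 260 genes was -0.60, a smaller decrease than that of a gene with level UMIs per cell.

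The largest decreases beyond secretion included genes of metabolism, stress and growth arrest. Apoe, a lipid carrier, had 505.8, 488.1, 2169 and 1300 CPM in G1 cells of the 4 mice and 0, 4.24, 75.7 and 2.00 in cycling cells, a log2 difference of -5.98 ± 0.33 (adjusted p = 4.0e-09), and the groups did not overlap. It was found in few cells: after thinning 20.0% of G1 and 3.42% of cycling plasma cells had a UMI of Apoe, and 1 G1 cell held 125. Ddit4, an inhibitor of mTORC1, fell from a mean of 91.5 to 11.9 CPM (-3.38 ± 0.43), and Gadd45g, a growth arrest gene, from 80.5 to 4.26 (-3.35 ± 0.47). Trp53inp1, a p53 target that promotes arrest and autophagy, had 369.3, 417.2, 542.2 and 489.5 CPM in G1 and 50.7, 109.4, 45.4 and 65.9 in cycling cells (-2.59 ± 0.23). Bcl2l11, the pro-death gene Bim, fell from 123.7 to 34.6 (-1.89 ± 0.28). The other genes with the largest decreases were Fam214a, Mef2b, Mt1, H2-Ob and Ctla4, with log2 differences from -2.67 to -1.89.

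Several smaller lists had members that were lower on the relative scale, and 15.5% of all tested genes were. A gene with level UMIs per cell also lies lower on that scale, and these lists were not summed per cell. Cell cycle brakes had 4 of 6 lower (Trp53inp1, Btg2, Ccng1 and Cdkn1b), and Cdkn1a and Cdkn2d did not pass. Interferon response genes had 5 of 6 lower, such as Isg20, an RNA exonuclease, from 874.6 to 269.8 CPM, and Ifi27l2a from 1509 to 485.1. Autophagy had 4 of 8 lower, among them Map1lc3b and Sqstm1. Its median log2 difference was -0.63, a smaller decrease than that of a gene with level UMIs per cell. Immediate early genes had 6 of 8 lower, and since they also respond to cell handling their values are given beside the rest: Fos had 767.7 CPM in G1 and 376.1 in cycling cells, and its part in the other differences was not tested.

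Genes of growth moved the other way. Myc response and ribosome biogenesis had 12 of 15 tested genes higher in cycling cells and none lower, against 16.6% of all genes. Ran, a GTPase of nuclear transport, had 457.7, 401.2, 395.2 and 321.0 CPM in G1 and 1285, 1178, 1583 and 1210 in cycling cells, with no overlap and a log2 difference of 1.71 ± 0.13. Npm1, the nucleolar protein nucleophosmin, rose from 635.0 to 1784 (1.38 ± 0.17). Glycolysis had 6 of 10 higher, led by Ldha (lactate dehydrogenase) with 1.62 ± 0.14 and Eno1 (enolase) with 1.42 ± 0.16. Oxidative phosphorylation had 1 of 18 genes past the threshold, Uqcrq, which was lower by a log2 difference of -0.51 ± 0.12. Its median log2 difference was 0.09, and in UMIs per cell the list was 2.05 times higher in cycling cells, beside the 1.90 of all genes.

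The largest increases outside the 2 phase lists were Fbxo5, Hist1h2ap, Incenp, Cenpk, Plk1, Hist1h2ae, Rasgrp2, Psmc3ip, H2afx and Sgol1, with log2 differences from 4.63 to 3.19. All but Rasgrp2 encode histones or proteins known from the cell cycle, chromosome segregation or recombination, and histone transcripts of near-identical genes may share reads. Rasgrp2, an exchange factor for the GTPase Rap1, had 8.03, 14.5, 0 and 0 CPM in G1 and 93.0, 108.6, 151.4 and 47.9 in cycling cells (log2 difference 3.37 ± 0.42, edgeR adjusted p = 1.4e-05). Genes of the cytoskeleton, migration and adhesion were divided. Vim, the intermediate filament vimentin, had 240.9, 246.2, 284.9 and 136.4 CPM in G1 and 574.9, 1096, 1113 and 521.2 in cycling cells (1.91 ± 0.16). The integrin chain Itgb1 and the transcription factor Klf2 also rose. Itga4, Itgal and Itgb2, other integrin chains, fell.

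**Figure D5:**
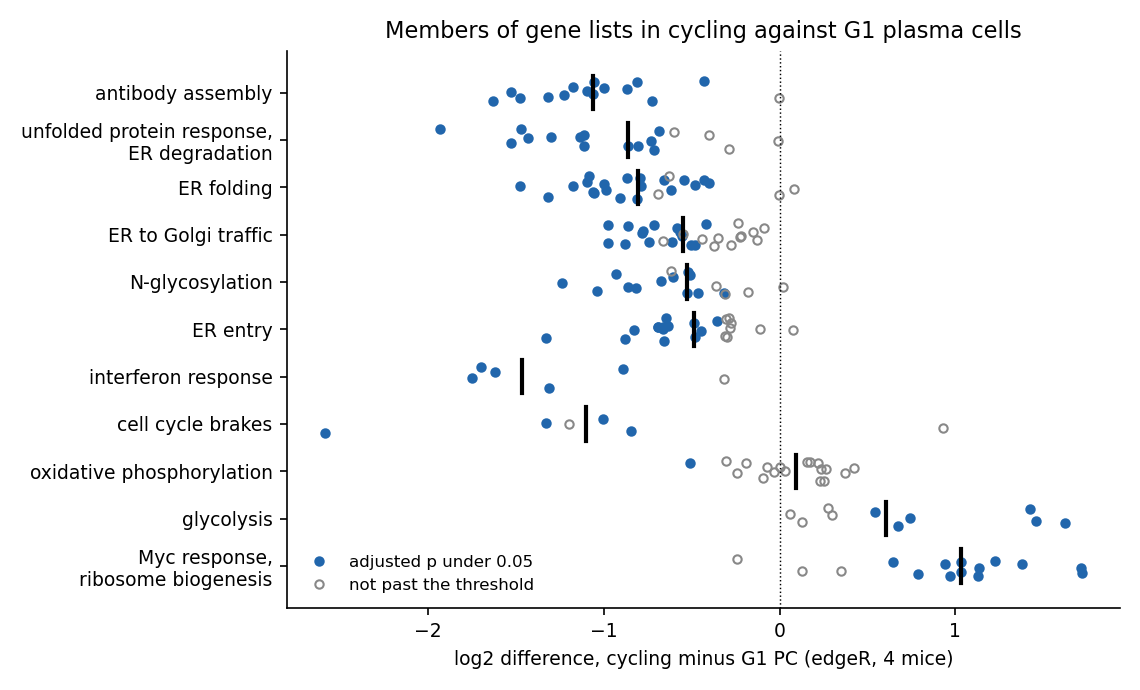
Log2 difference (x axis) of cycling minus G1 plasma cells for each tested gene of 11 lists (rows), from edgeR over 4 mice; filled blue points passed an adjusted p of 0.05, open grey points did not, and black bars are list medians. The 6 secretory lists lie to the left with medians from -1.06 to -0.48, and the glycolysis and the Myc response lists lie to the right with medians of 0.61 and 1.03.

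Spread between single plasma cells was largest for a few abundant or patchy genes. It was measured in thinned cells as the Fano factor, the within-mouse variance over the mean, which is near 1 for counting noise alone. Its median was 1.26 over 1600 genes in G1 cells and 1.20 over 1837 genes in cycling cells. In G1 cells the 10 highest were Slpi (319.1), Yam1 (266.1), Jchain (86.9), Ly6c2 (80.6), Hsp90b1 (79.8), Apoe (74.2), Ifi27l2a (56.8), Mt1 (51.7), Cd74 (51.0) and Malat1 (49.5). High values in few cells weigh on this measure: Yam1, a symbol that matched no reference entry, had a median of 29.5 UMIs and a highest value of 1124, Ifi27l2a 6.5 and 267, and Mt1 0 and 91. Slpi ran from 0 to 1189 thinned UMIs per G1 cell around a median of 98, while Jchain, with a higher median of 228, ran from 38 to 1065. Ly6c2 was patchy: it had a UMI in 66.0% of G1 and 59.0% of cycling plasma cells, with a median of 3 and a highest value of 243 in G1. Some specific genes were even between cells: H13 had a Fano factor of 2.02 at a mean of 13.6 UMIs, and Fam46c 1.62 at 4.33.

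Xbp1 had a UMI in 100 of 100 thinned G1 plasma cells and in 99.1% of the cycling ones, beside 51.7% of DZ cells at the same depth. Cd28 had a UMI in 60.0% of G1 and 49.6% of cycling cells, Sdc1 in 42.0% and 38.5%, Prdm1 in 30.0% and 26.5%, and Tnfrsf17 in 24.0% and 30.8%. These shares pool cells over mice, and cells are not replicates, so they do not test a difference between phases. In the edgeR test over mice Cd28 and Sdc1 were lower in cycling cells. In DZ cells, which should lack them, Cd28, Sdc1, Prdm1 and Tnfrsf17 were found in at most 0.442%. Before thinning they were found in 65.3%, 53.3%, 43.8% and 40.1% of all 242 plasma cells. Within day 10 mouse 2, the mouse with most cells, the immunoglobulin share and thinned Jchain UMIs had a Spearman correlation of 0.57 over 60 G1 cells and 0.71 over 56 cycling cells. With the sum of the secretory genes it was 0.25 and 0.69. These correlations describe cells of 1 mouse that share a library and a depth.

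Between days no gene passed in plasma cells by edgeR's quasi-likelihood test over the 6 mice, with 4115 genes tested and 0% called in each contrast and over all 3 days. At an unadjusted p under 0.05 there were 101 genes for day 16 against 10, 90 for day 22 against 10, 205 for day 22 against 16 and 128 over all days. DESeq2 called 2 genes for day 16 against 10, Plac8 (log2 difference -3.09, adjusted p = 0.0053) and Ifitm3 (-2.73, adjusted p = 0.012), and Plac8 over all days. Ifitm3 had 280.5 and 231.5 CPM on day 10, 33.5 and 42.0 on day 16, and 298.7 and 79.6 on day 22. With immunoglobulin genes kept, the variable gene Ighv1-53 was called for both later days against day 10. The median SE of a log2 difference was 0.38 to 0.42. In simulated data for day 22 against 10 the test found 12 of 100 changes of 2-fold and 77 of 100 of 4-fold, with 6 false calls (3814 genes). Changes of 2-fold were thus mostly not detectable with these mice and cells, and the parts of depth and of spread between mice were not tested. Leaving out 1 of the mice changed this: without day 16 mouse 1 the test called 37 genes for day 16 against 10 and 39 for day 22 against 16, and without day 16 mouse 2 it called 15 and 47. Whether the mice of a day were litter mates or were handled apart is not given, so these p-values measure the spread between these mice only.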

How the data were processed

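The deposited matrix gives raw UMI counts per gene and cell, and per the submitters' processing notes the authors used Cell Ranger and Seurat with the mouse genome mm10/GRCm38, at versions not given in the sources used here. The deposited cell table gives the state, phase call, cluster, day and mouse of each cell, its UMI and gene numbers, and a module score made by the authors. How states and phases were called and doublets treated is not given in the sources used here, and no cell was removed.

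Counts were summed per mouse and state (at least 10 cells, prePC at least 3) and scaled to CPM without the 253 immunoglobulin genes. A mouse is the replicate. Cycling against G1 plasma cells (at least 5 cells in both sums, mouse as a block, since both sums come from the same animal) and the days (at least 10 cells) were tested with edgeR 4.0.16 in R 4.3.3 (quasi-likelihood, TMM, filterByExpr; Benjamini-Hochberg threshold 0.05), with DESeq2 1.42.0 as an alternative. In simulated data for cycling against G1 (2669 genes) 73 of 100 changes of 2-fold and 92 of 100 of 4-fold were called, with 9 false calls. Single cells were thinned to 7507 UMIs, the 10th percentile of plasma cells. List medians add 1 CPM.

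Genes were named by rule: the 20 largest ratios to the next state among genes of at least 50 CPM that lay above every other sum, the 10 largest differences in each direction of a test (at least 20 CPM, the same sign in every mouse, phase lists left out), the highest members of each list, the 5 markers and the 10 highest Fano factors. Predicted, mitochondrial and immunoglobulin genes were left out. Genes outside the rule (such as Bcl2l11, Itgb1, Klf2 and members named because they missed a test) were chosen after their values were seen. The members, lists and rules were chosen with earlier results of these data known. Positions are from GENCODE M21. Python 3.11.15 with scipy 1.17.1 was used for the rest.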

Additional observations from a re-analysis of the deposited data

Results flagged for a closer look

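In 46 groups of 4 to 6 mice that were examined, 3 held a mouse far from the others, and chance flags about 1 in 20 groups. Prg2 in plasma cells was at 267.9 CPM in day 16 mouse 1, and the nearest mouse was at 79.3. H13 in plasma cells was at 911.4 CPM in day 16 mouse 2, while the other mice lay between 1310 and 1381. The log2 difference of Sgol1 between cycling and G1 cells was 5.28 in day 16 mouse 2, whose G1 cells held 0 UMIs of it, and the nearest mouse had 3.02.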

How the results depend on the processing

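For plasma cells against the other states, 1238 genes were highest in plasma cells with immunoglobulin genes kept in the library size and 1276 with a minimum of 10 CPM there, in place of 1923. Genes below every other sum, 176 at first, were 363 with immunoglobulin genes kept, 428 without prePC, 297 in G1 cells only and 316 without day 16 mouse 1 and day 22 mouse 2, and 186 to 288 with 1 mouse left out. Without those 2 mice 444 genes lay above, in place of 300. For cycling against G1, 906 genes became 577 with the DESeq2 test, 423 in thinned cells (1343 genes tested) and 590 to 1044 with 1 mouse left out (1826 to 4098 tested). The cause of the DESeq2 difference was not tested. Without the replicate block, that is the mouse that pairs the sums, 894 genes passed. Of the named cycling differences that an alternative could test, 367 kept their call, 5 lost it, 4 gained it and 0 turned. Those lost were Sdc1 (with G2M cells only, without day 10 mouse 2 and without day 16 mouse 2), Cd28 (G2M cells only) and Mt1 (without the block). Those gained were Tnfrsf17 (G2M cells only and without day 10 mouse 2) and Prdm1 (plasma cell fraction only and without day 22 mouse 1). Genes that an alternative did not test, such as Fbxo5, Cenpk and Ddit4 with G2M cells only, are not in these counts. A minimum of 10 cells per sum and leaving out day 10 mouse 1 gave the same fit (1044 of 4098 called), which is counted under both settings. Of the ratios to the next state 192 moved by less than the spread between mice, 68 by more, and 0 turned. That spread is the SD of the log2 levels in plasma cells, not of the ratio. The minimum of 10 CPM cannot move a ratio, so its results were fixed in advance. The genes were picked for large ratios, so a turn could hardly occur.

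Calls between days were 0 in each comparison at first. For day 16 against 10 they were 2 with DESeq2, 15 with no filter, 1 with immunoglobulin genes kept, 20 in thinned cells, 7 in G1 cells and 0 to 37 with 1 mouse left out. For day 22 against 10 they were 13 with no filter, 1 with immunoglobulin genes kept, 8 in thinned cells, 4 in G1 cells and 0 to 8 with 1 mouse left out. For day 22 against 16 they were 18 with no filter, 16 in thinned cells, 6 in G1 cells and 0 to 47 with 1 mouse left out. Over all days they were 1 with DESeq2, 31 with no filter, 1 with immunoglobulin genes kept, 23 in thinned cells, 15 in G1 cells and 0 to 52 with 1 mouse left out. The cause was not tested. A mouse left alone on its day is assumed to vary like the others. Sums of at least 20 cells left 1 mouse a day and could not be fitted. G1 cells only in every state and leaving out both mice together were chosen after seeing the data.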
